A study of Mus musculus with 18 samples.

Results

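The genes described here are 9 Paneth cell markers that are not defensins: Lyz1, Mmp7, Ang4, Itln1, Clps, Pnliprp2, Habp2, Mptx1 and Mptx2. They were taken by gene name from the 55335 genes of the count table, and all 9 were among the 21349 genes that passed the filter on low counts. Mptx1 passed through its higher groups, since 0 of the 6 KO libraries of days 7 and 14 reached the filter's level of 0.471 CPM, the counts scaled to a common library size. RNA was sequenced from small intestinal crypts of mice, 8 to 12 weeks old, with LoxP-flanked Prmt1 on both alleles (Prmt1 fl/fl). In KO mice the villin promoter of the intestinal epithelium additionally drove CreERT2, a Cre recombinase switched on by tamoxifen, and WT mice were littermates without it. All mice, WT included, received tamoxifen at 2 mg per injection, 2 times before collection at day 2 and 5 times before collection at days 7 and 14. Each of the 6 groups held 3 mice with 1 library each, 18 libraries in all.

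Paneth cells sit at the base of small intestinal crypts, between the stem cells, and release granules of antimicrobial proteins into the crypt lumen. They also supply growth factors and Wnt ligands to the neighbouring stem cells. Unlike most other epithelial cells of the intestine they live for weeks, and they arise from secretory progenitors under high Wnt signalling. Purified crypts hold several cell types, so that fewer Paneth cells and less RNA per Paneth cell cannot be told apart in these libraries.

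Total counts were 12844642 to 31493484 per library. Prmt1 was lower in KO than in WT crypts on each day, with log2 fold changes (log2FC) of -0.89 at day 2, -0.59 at day 7 and -0.72 at day 14. The adjusted p of 0.0264, 0.00675 and 0.00329, like every adjusted p given here, came from the quasi-likelihood test of edgeR with Benjamini-Hochberg adjustment. The label of the libraries as crypt RNA with Paneth cells was met by the defining markers, since the 22 alpha-defensins summed to 4929 to 13576 CPM in the 9 WT libraries. KO day 7 replicate 1 was the lowest library of its group for 9 of the 9 markers, with a median deviation of -0.94 from the group mean in log2 CPM. WT day 2 replicate 1 was likewise the lowest (-0.48) and WT day 2 replicate 3 the highest (0.66) for 9 of 9. KO day 2 replicate 2 (-0.38) and WT day 7 replicate 2 (-0.25) were the lowest, and WT day 7 replicate 3 (0.29) the highest, for 8 of 9.

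The upstream sequences of Lyz1, the defining marker, of Ang4 and Mptx2, which were lower in KO crypts at both day 7 and day 14, and of Mptx1, the paralog of Mptx2, are shown first because the Wnt-responsive TCF/LEF factors act in Paneth cells. RefSeq (GRCm38.p6) held an entry for 8 of the 9 genes, and 7 had bases outside the gene as counted. Capitals mark CTTTGA or CTTTGT on either strand, read as TCAAAG or ACAAAG on the printed strand, and each sequence runs 5′ to 3′ on the strand of its gene. The windows are chr10:117292869-117293118 (minus strand) for Lyz1, chr14:51773591-51773840 (minus) for Ang4, chr1:174330268-174330517 (plus) for Mptx1 and chr1:173277778-173278006 (minus) for Mptx2.
Lyz1: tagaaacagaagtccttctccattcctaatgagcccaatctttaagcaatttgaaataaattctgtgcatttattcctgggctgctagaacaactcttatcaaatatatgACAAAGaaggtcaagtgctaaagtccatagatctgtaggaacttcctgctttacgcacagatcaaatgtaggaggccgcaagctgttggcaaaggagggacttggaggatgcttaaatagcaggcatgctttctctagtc
Ang4: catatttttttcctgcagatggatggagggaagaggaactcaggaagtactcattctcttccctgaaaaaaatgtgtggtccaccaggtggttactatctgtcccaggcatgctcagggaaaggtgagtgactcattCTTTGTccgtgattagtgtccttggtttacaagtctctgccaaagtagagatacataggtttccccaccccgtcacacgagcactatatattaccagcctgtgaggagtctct
Mptx1: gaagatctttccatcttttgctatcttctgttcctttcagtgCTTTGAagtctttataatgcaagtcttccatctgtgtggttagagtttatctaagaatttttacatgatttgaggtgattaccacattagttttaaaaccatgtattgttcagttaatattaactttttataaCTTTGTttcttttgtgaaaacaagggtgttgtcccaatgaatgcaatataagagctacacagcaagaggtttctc
Mptx2: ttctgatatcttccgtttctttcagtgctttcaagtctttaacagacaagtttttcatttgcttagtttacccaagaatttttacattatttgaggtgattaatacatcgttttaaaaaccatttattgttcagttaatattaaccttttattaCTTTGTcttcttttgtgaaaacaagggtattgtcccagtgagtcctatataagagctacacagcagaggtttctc
At least 1 such match lay in 5 of the 7 upstream sequences, Pnliprp2 being the fifth, whereas Mmp7 and Itln1 held none. Of 32851 RefSeq promoters, 27.6% held one in their 250 upstream bases. The E-box CAGCTG was in 0 of the 7 (13.001% of promoters) and TATAAA in 1, Mmp7 (7.59%). A match describes letters and is not a measured binding site. The paralogs Mptx1 and Mptx2 were the most alike, with 201 of 227 aligned bases identical (88.5%) and a CTTTGT match 75 bases before the end of the window in both. The other 20 pairs were 63.8% to 76.5% identical. A stricter alignment scoring, chosen after the first result was seen, gave 86.4% for Mptx1 and Mptx2 and 48.0% to 62.6% for the other pairs.

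The 9 genes spanned a wide range of expression. Per kilobase of exon, the mean over 18 libraries was 3484 CPM per kb for Lyz1, which ranked 19 among the 21349 genes, and 1307 for Itln1. Ang4 followed with 360, Mptx2 with 259 and Mmp7 with 158 CPM per kb. Lower levels were found for Clps (56.2), Pnliprp2 (50.8) and Habp2 (9.40 CPM per kb), and Mptx1 was the lowest at 0.921. Clps and Pnliprp2, next to each other in this order of levels, lay within the spread of each other, with WT day 2 levels of 64.3 ± 28.9 and 52.5 ± 26.3 CPM per kb (SD, n = 3).

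At day 2 none of the 9 markers passed the test of KO against WT crypts. KO means were 117% to 143% of WT for 8 genes and 98.6% for Mptx1, the libraries of both genotypes overlapped for each gene, and 0 of 9 passed the test, where 0.0328% of all genes did (either direction). None of the 9 had an unadjusted p under 0.05 (3.33% of all genes), and 0 were called under each alternative, DESeq2 included. At day 7 all 9 were lower in KO crypts, against 10.2% of all genes called lower. At day 14, 3 of 9 were called lower, against 4.69%. Without Mptx1, which passed the filter on low counts only through its higher groups, the counts were 8 of 8 and 2 of 8.

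**Figure D1:**
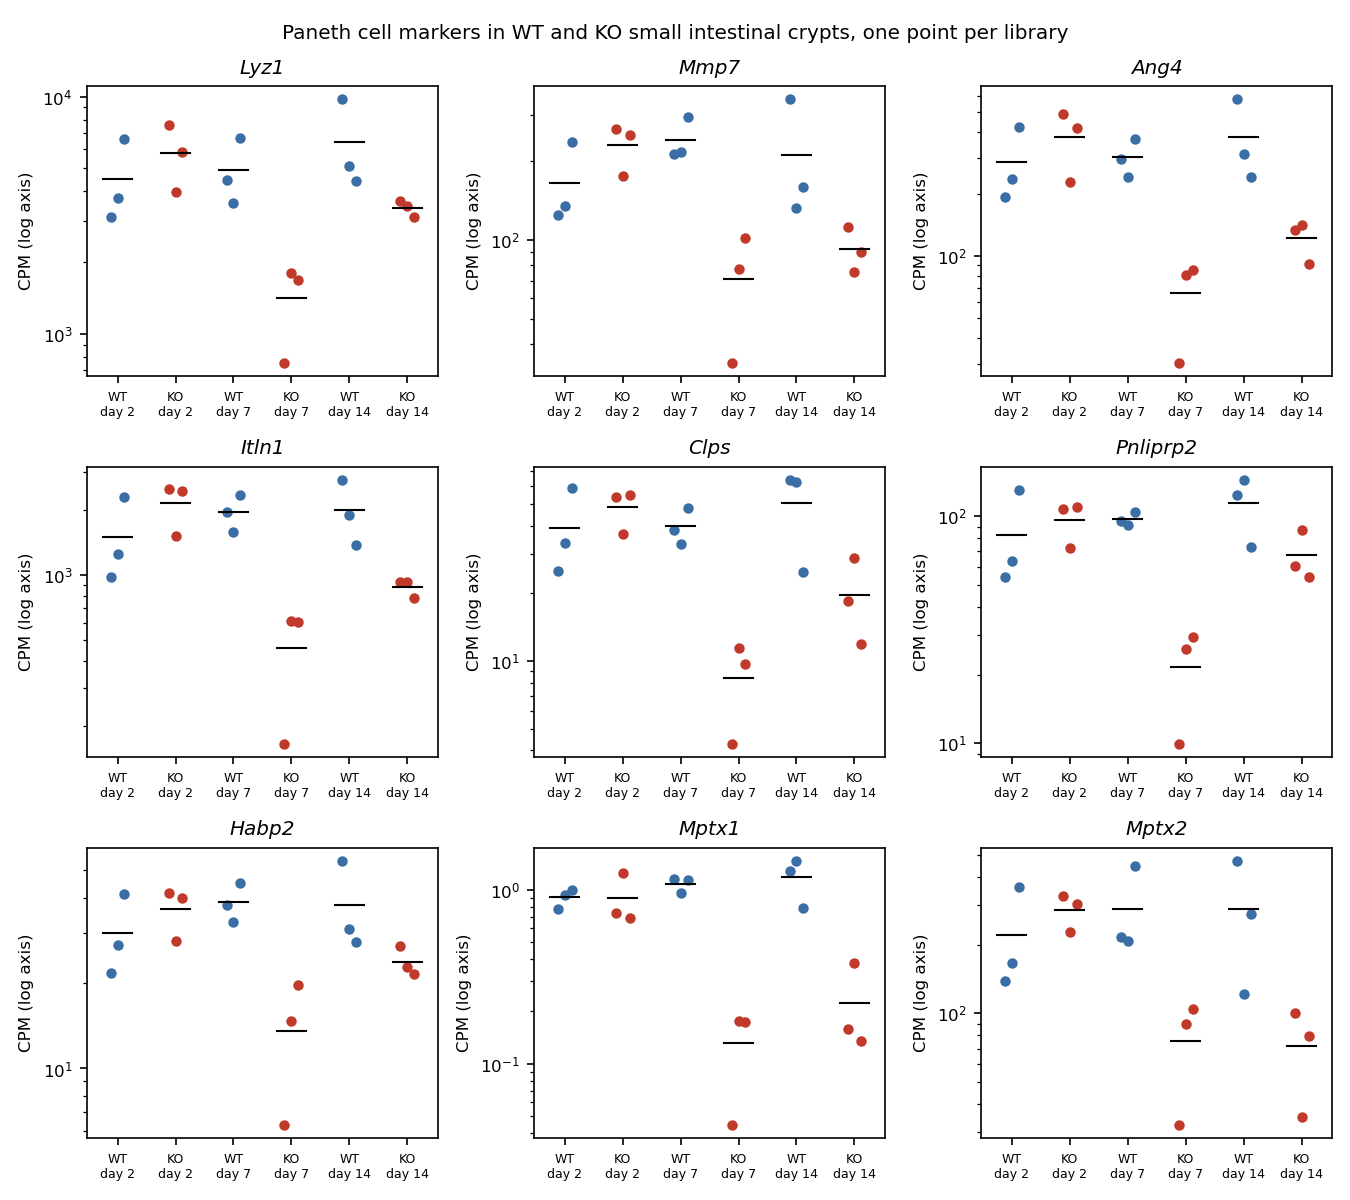
CPM of each marker (log axis) in the 18 libraries by genotype and day, with points for libraries and bars for group means (n = 3). The KO day 7 points lie below all WT day 7 points in the 9 panels.

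Lyz1 encodes lysozyme, which cleaves the peptidoglycan of bacterial walls (chr10:117287797-117292868, minus strand, mm10). At day 2 it measured 3109, 3725 and 6598 CPM in WT and 7618, 3948 and 5846 CPM in KO crypts. At day 7 the WT libraries held 4443, 3543 and 6695 CPM and the KO libraries 751, 1796 and 1678 CPM. The KO libraries all lay below the WT libraries, with a mean at 28.8% of WT and a log2FC of -1.80 (SE 0.38, adjusted p = 0.00303). At day 14 the values were 9747, 5112 and 4407 CPM in WT and 3640, 3448 and 3106 CPM in KO. These also did not overlap, but the difference of -0.92 (SE 0.38) had an adjusted p of 0.150. Of the 1164 windows of 100 bases along Lyz1, 24 are shared with Lyz2, the macrophage lysozyme, which was at most 35.4 CPM in any library.

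Itln1 encodes an intelectin, a lectin that binds microbial sugars (chr1:171518122-171535294, minus strand). At day 7 it measured 1960, 1574 and 2342 CPM in WT and 165, 613 and 606 CPM in KO crypts. The groups did not overlap and the log2FC was -2.09 (SE 0.42, adjusted p = 0.00230). At day 14 the WT values were 2736, 1889 and 1369 CPM and the KO values 923, 923 and 783 CPM. The groups were again apart, with a log2FC of -1.19 (SE 0.41) and an adjusted p of 0.0849. It was called in a fit of the day 14 groups alone (adjusted p = 0.0206) and by DESeq2 (0.0484), but not with the replicate block (0.0778).

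Ang4 encodes a secreted ribonuclease with antimicrobial activity (chr14:51763878-51773590, minus strand), and its upstream sequence is given above. At day 7 it measured 295, 241 and 368 CPM in WT and 30.2, 81.2 and 85.9 CPM in KO crypts, a log2FC of -2.20 (SE 0.43, adjusted p = 0.00266). At day 14 it measured 577, 312 and 241 CPM in WT and 134, 141 and 91.4 CPM in KO crypts. All KO libraries lay below the WT libraries on both days, and the day 14 log2FC was -1.63 (SE 0.43, adjusted p = 0.0271). Without WT day 14 replicate 1 it was -1.18 (adjusted p = 0.125), and leaving out KO replicate 1, 2 or 3 of day 14 gave an adjusted p of 0.0726, 0.0623 or 0.114. The call was also lost without a filter on low counts (0.0778).

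Mmp7 encodes matrilysin, the protease that activates alpha-defensin precursors in mouse Paneth cells (chr9:7692090-7699585, plus strand). At day 7 it measured 212, 216 and 295 CPM in WT and 33.9, 77.6 and 102 CPM in KO crypts. This was a log2FC of -1.76 (SE 0.40, adjusted p = 0.00693) with no overlap. At day 14 the values were 344, 132 and 159 CPM in WT and 112, 75.8 and 90.0 CPM in KO, and the log2FC of -1.19 (SE 0.40) had an adjusted p of 0.0816. With the replicate number as a block it was called (adjusted p = 0.0194). The antisense gene AV064505 shares 123 exonic bases with Mmp7, and strand was not used in the counting, so a part of their fragments cannot be assigned.

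Mptx1 and Mptx2 encode mucosal pentraxins, relatives of C-reactive protein. Mptx2 (chr1:173274382-173277777, minus strand) measured 216, 208 and 444 CPM in WT and 32.2, 89.6 and 105 CPM in KO crypts at day 7. At day 14 it measured 468, 121 and 273 CPM in WT and 101, 35.1 and 79.6 CPM in KO. The groups did not overlap on either day, and the log2FC values were -1.94 (SE 0.58, adjusted p = 0.0327) and -1.999 (SE 0.58, adjusted p = 0.0491). The day 7 call was lost without WT day 7 replicate 3 (adjusted p = 0.126), KO day 7 replicate 1 (0.134) or KO day 7 replicate 2 (0.0673), and without a filter on low counts (0.0715). The day 14 call was lost without any single library but WT day 14 replicate 2 (adjusted p = 0.0723 to 0.194), and under 5 other settings (0.0504 to 0.158).

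Mptx1 (chr1:174330518-174332873, plus strand) was rare, with 15 to 32 counts per WT library and 1, 5 and 4 counts per KO library at day 7. At day 14 it had 17, 37 and 17 counts in WT and 3, 6 and 2 in KO. The log2FC values of -2.96 (SE 0.45, adjusted p = 0.000158) and -2.37 (SE 0.45, adjusted p = 0.00219) rest on these counts. Since its KO libraries of days 7 and 14 lay below the filter's level, Mptx1 could be tested only through groups where it was higher, and its calls are given as values without support drawn from them. With no filter on low counts the log2FC values were -2.97 (adjusted p = 7.08e-07) and -2.39 (adjusted p = 0.000273). Mptx1 and Mptx2 share 23 windows of 100 bases, so a small part of the fragments could not be told apart.

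Clps and Pnliprp2 encode colipase, a cofactor of lipases, and a lipase related to pancreatic lipase. At day 7 Clps (chr17:28558149-28560766, minus strand) measured 38.4, 33.2 and 48.2 CPM in WT and 4.27, 11.4 and 9.69 CPM in KO crypts, a log2FC of -2.23 (SE 0.46, adjusted p = 0.00388). At day 7 Pnliprp2 (chr19:58759719-58777534, plus strand) measured 95.3, 91.8 and 104 CPM in WT and 9.92, 25.97 and 29.3 CPM in KO, a log2FC of -2.16 (SE 0.40, adjusted p = 0.00186). Both were apart at day 7 but overlapped at day 14, with 63.8, 62.3 and 24.98 CPM in WT and 18.6, 28.8 and 11.9 CPM in KO for Clps. Pnliprp2 then measured 124, 144 and 72.99 CPM in WT and 60.3, 87.1 and 54.1 CPM in KO. The day 14 log2FC values were -1.35 (SE 0.44, adjusted p = 0.0794) for Clps and -0.76 (SE 0.38, adjusted p = 0.271) for Pnliprp2. Clps was called with the replicate block (adjusted p = 0.0242), by DESeq2 (0.0419) and without WT day 14 replicate 3 (0.0263). Both genes are also expressed in pancreatic acinar cells. The 14 acinar genes listed, which include neither, summed to 4.002 to 19.2 CPM per library and Amy2a5, an amylase, was at 0 in all 18. Of the 7 acinar genes tested, 1 was called lower at day 7, beside 10.2% of all genes. It was Pnliprp1, another relative of pancreatic lipase (log2FC -1.97, adjusted p = 0.0141). The part of acinar RNA in these results was not tested.

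Habp2, a secreted serine protease that binds hyaluronan (chr19:56287137-56320822, plus strand), had the smallest change of the 9 on both days. It measured 37.8, 32.9 and 45.0 CPM in WT and 6.31, 14.7 and 19.7 CPM in KO crypts at day 7, a log2FC of -1.51 (SE 0.35, adjusted p = 0.00720). At day 14 it measured 53.8, 31.1 and 27.8 CPM in WT and 27.04, 22.8 and 21.5 CPM in KO, with a log2FC of -0.65 (SE 0.34, adjusted p = 0.291). Habp2 shares 268 exonic bases with Nrap on the other strand.

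**Figure D2:**
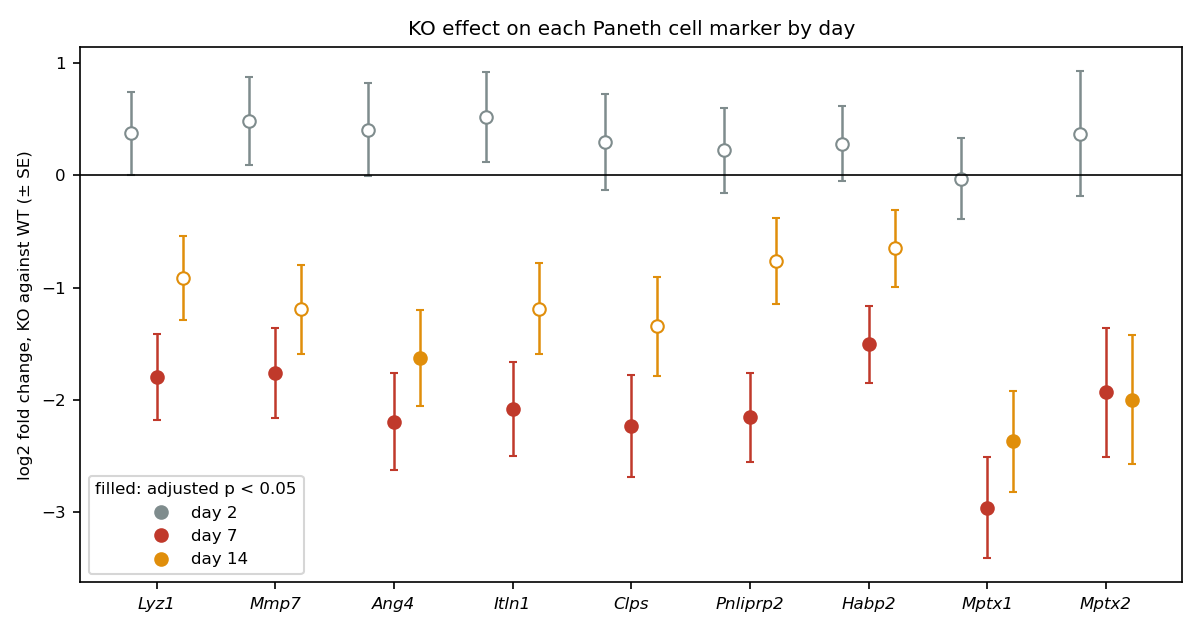
Log2FC of KO against WT (± SE) for each marker at days 2, 7 and 14, filled where the adjusted p was under 0.05. The values at day 7 run from -1.51 to -2.96, and 3 points are filled at day 14.

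Over the 9 genes the median log2FC was 0.37 at day 2, -2.09 at day 7 and -1.19 at day 14, beside medians of -0.0048, 0.016 and 0.0022 over all genes. Every KO library was below every WT library for 9 of 9 genes at day 7 and 7 of 9 at day 14, against 17.7% and 14.1% of all genes, and for 8 of 8 and 6 of 8 without Mptx1. For a single gene the exact two-sided permutation test of 3 against 3 cannot go below p = 0.1, the value reached by each of these genes. At day 14 the libraries were treated as paired by replicate number by the rule given with the methods, though the labels state no pairing. The replicate block was fitted on all days at once, days 2 and 7 included. In that fit 5 of 9 were called lower at day 14, Mmp7 and Clps beside Ang4, Mptx1 and Mptx2, against 5.33% of all genes. Without Mptx1 these were 4 of 8 with the block and 2 of 8 without it. Both calls without the block, Ang4 and Mptx2, were lost when WT replicate 1 or any KO replicate of day 14 was left out, and with no filter on low counts.

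**Figure D3:**
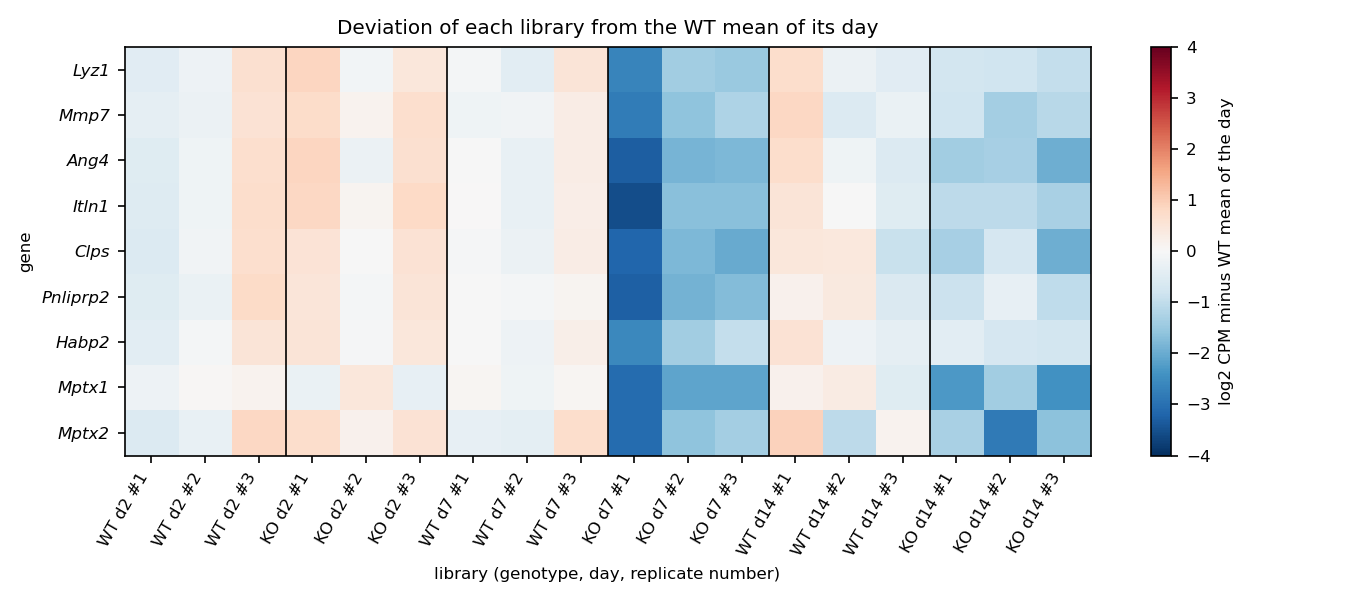
Log2 CPM of each marker in each library minus the WT mean of its day, with columns for the 18 libraries and rows for the 9 genes. KO day 7 libraries range from -3.55 to -0.96, KO day 14 libraries from -2.82 to -0.33 and KO day 2 libraries from -0.34 to 0.86.

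The change between the days was tested as a difference of KO effects. From day 2 to day 7 the KO effect was lower for 8 of 9 genes (3.04% of all genes called lower), by 1.79 for Habp2 to 2.94 for Mptx1 on the log2 scale, and for 7 of 8 without Mptx1. Mptx2 did not pass (adjusted p = 0.130). Of these 8 calls, 2 were left without WT day 2 replicate 1 or 2, KO day 2 replicate 1 or WT day 7 replicate 3, 4 without KO day 2 replicate 3, WT day 7 replicate 1 or KO day 7 replicate 1, and 5 without WT day 7 replicate 2. Without a filter on low counts 0 of the 8 other than Mptx1 were called. From day 7 to day 14 the difference was 0.57 to 1.40 for 8 genes and -0.06 for Mptx2, and 0 of 9 passed the test. No gene of the table did (0%) by edgeR, while 953 genes (4.46%) had an unadjusted p under 0.05, and of the 9 this held for Pnliprp2 alone. DESeq2 called 0 of 9 and 0% of all genes as well. The day 14 effect against day 2 also called 0 of 9, with 1.04% of all genes called in either direction, while 7 of the 9 had an unadjusted p under 0.05, as did 11.9% of all genes. DESeq2 called 2 of 9, Ang4 and Mptx1, and 2.37% of all genes. A smaller fold at day 14 than at day 7 is therefore not shown for these genes.

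Within genotypes, none of the 9 genes passed the test between days in WT crypts in 3 comparisons, with log2 differences of -0.19 to 0.55 while 0.553% (day 7 against 2), 1.61% (14 against 2) and 0.0796% (14 against 7) of all genes were called. None of the 9 had an unadjusted p under 0.05 in these comparisons, against 5.18% to 22.4% of all genes. KO crypts were lower at day 7 than at day 2 for 9 of 9 genes (8.80% of all genes called lower). At day 14 they were lower than at day 2 for Mmp7, Ang4, Itln1, Mptx1 and Mptx2 (5.75%). Without Mptx1 these counts were 8 of 8 and 4 of 8. Of these 5 calls, 1 was left without KO day 2 replicate 1 or 3, 3 without KO day 14 replicate 2 and 0 without KO day 14 replicate 1 or 3. From day 7 to day 14 KO levels differed by 0.38 to 1.63 on the log2 scale for 8 genes and by -0.07 for Mptx2, and 0 passed the test, where 0.0468% of all genes did. At an unadjusted p under 0.05 edgeR gave 5 of the 9 and 9.27% of all genes. DESeq2 called 1 after adjustment, Pnliprp2, and 1.23% of all genes. Lyz1 was 1.27 higher (SE 0.38, adjusted p = 0.209). Groups are shared among these comparisons and with those above.

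The markers varied together among the libraries. Pearson's r of log2 CPM for the 36 pairs was 0.68 to 0.98 (median 0.92, n = 18 libraries), and 0.80 in the median after group means were removed (range -0.01 to 0.97). These are descriptions, since libraries share group and depth. The gene most like Lyz1 was Defa29 (r = 0.99), and alpha-defensins or their pseudogenes were also among the 3 most alike for Mmp7, Ang4, Clps, Pnliprp2, Itln1, Habp2 and Mptx2. The gene most like Mmp7 (r = 0.99) and Mptx2 (0.95) was AV064505, which shares exonic bases with Mmp7. The part of shared fragments in its likeness to Mmp7 was not tested. Slc1a4 for Mmp7, Samd5 for Habp2 and C1qtnf1 for Mptx2 were also among the 3. For Mptx1 the 3 most alike were Cadps2 (0.96), Rad50 (0.96) and Bbs2 (0.96).

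The levels of the other markers were also taken relative to Lyz1 within each library. The log2 ratio of Ang4 to Lyz1 was -3.99 ± 0.17 in WT and -4.46 ± 0.17 in KO at day 7, and -4.10 ± 0.08 and -4.82 ± 0.24 at day 14 (SD, n = 3). Habp2 went the other way, with -7.39 ± 0.10 in WT and -7.16 ± 0.08 in KO at day 14. For Itln1 it was -1.65 ± 0.20 in WT and -1.96 ± 0.05 in KO at day 14, and for Clps -6.90 ± 0.19 and -7.38 ± 0.08 at day 7. Mptx1 is left out of these ratios for its low counts. Each of these genes was compared at days 2, 7 and 14, and the ratios given were picked because the groups were apart. In no other ratio of these genes were they apart (p = 0.1 for each ratio given by an exact two-sided permutation test, its lower limit). Among this many ratios some would be apart without a difference, so no shift of a single gene is drawn from them. None of the ratios could pass a threshold of 0.05.

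Other genes of the Paneth cell programme were examined by list, beside 10.2% of all genes called lower and 7.11% called higher at day 7, and 4.69% and 3.23% at day 14. Of 11 fate regulators and surface markers, 4 were lower at day 7 and none higher: Bhlha15, a secretory transcription factor (-1.35, adjusted p = 0.00546), Cd24a (-0.87, 0.00272), the Wnt-dependent factor Sox9 (-0.73, 0.00367) and the receptor Kit (-0.53, 0.0457). Atoh1, the master regulator of secretory fate, was 0.24 (adjusted p = 0.335). None of the 11 was called at day 14 or day 2. Of 6 niche ligands, Wnt3 (-0.87, adjusted p = 0.0260) and Egf (-1.02, 0.00122) were lower at day 7. Wnt11 was called higher at day 7 (2.51, adjusted p = 0.0301), but it passed the filter on low counts only with the KO day 7 libraries, where it had 16 to 23 counts against 0 to 10 elsewhere, so that no support is drawn from this call either. Of 8 granule and autophagy genes, Irgm1, an immunity GTPase, was higher at day 7 (0.54, adjusted p = 0.0398), 1 of 8 against 7.11% of all genes. Neither list had a call at day 14.

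**Figure D4:**
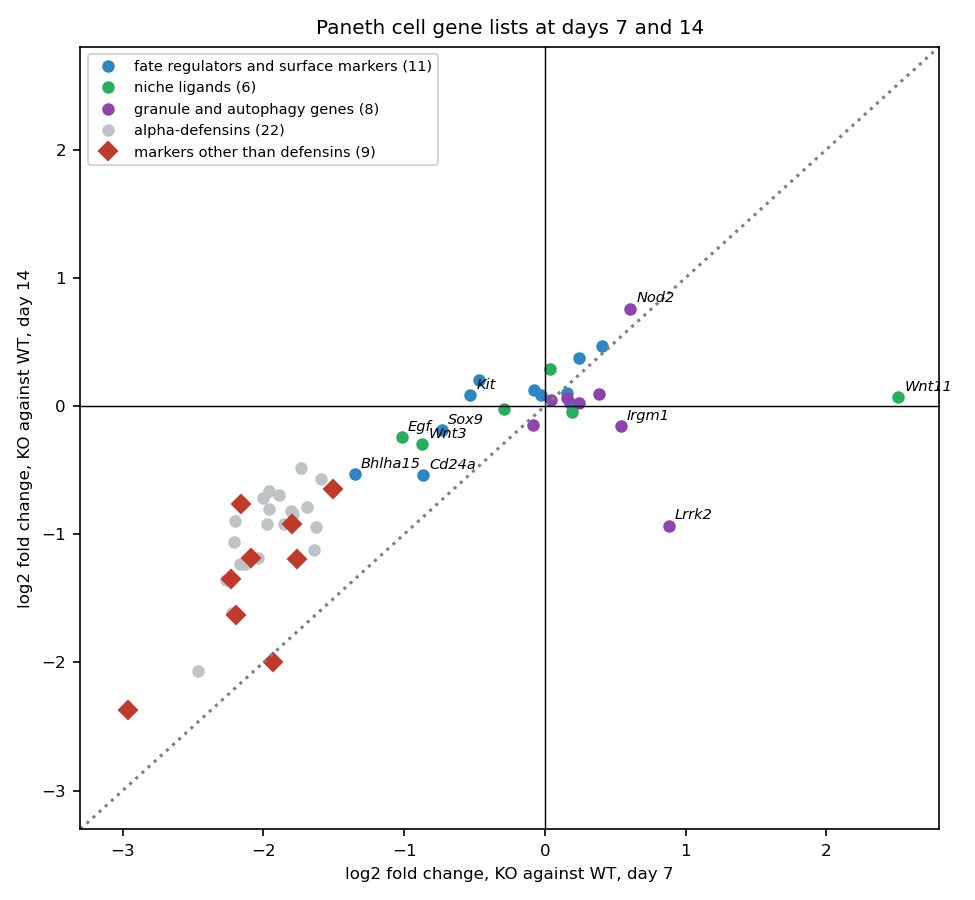
Log2FC of KO against WT at day 7 (x) and day 14 (y) for the Paneth lists, the markers other than defensins as red diamonds. The 9 markers and 22 alpha-defensins lie at -1.51 or below on the x axis, and the dotted line marks equal values.

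The 22 alpha-defensins, whose products are stored in the same granules, had log2FC values of -2.46 to -1.59 at day 7 (20 called lower) and -2.06 to -0.48 at day 14 (0 called), against 9 and 3 of the 9 markers. Without Mptx1 the markers had 8 of 8 and 2 of 8, and those 2 calls depended on single libraries. All 22 defensins were below 0 at day 14, with a median of -0.92 beside -1.19 for the markers. The counts in this paragraph stand beside 10.2% of all genes called lower at day 7 and 4.69% at day 14. Of 8 tested antimicrobial genes of other families, Ccl6 (-1.38, adjusted p = 0.00135), a chemokine, and Pla2g2a (-1.31, 0.0216), a phospholipase, were lower at day 7, and none was called at day 14. Of 5 tested relatives of the 9 markers, Pnliprp1 (-1.97, adjusted p = 0.0141) and Ang (-0.53, 0.00363) were lower at day 7.

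Markers of other cell types were examined in the same libraries, and their part in the results was not tested. Their counts stand beside the same shares of all genes, 10.2% lower and 7.11% higher at day 7 and 4.69% lower and 3.23% higher at day 14. The 4 stem cell markers summed to 1126 to 1535 CPM in WT and 244 to 687 CPM in KO crypts at day 7, with 3 of 4 called lower (Lgr5, Olfm4 and Smoc2), and to 1353 to 1566 and 1050 to 1282 CPM at day 14, with 1 called. The 5 enteroendocrine markers were all higher in KO crypts on both days. The 6 goblet cell markers had 2 called lower at day 7 (Clca1 and Fcgbp) and 1 at day 14. At day 7, 1 of 3 tested tuft cell markers was lower (Dclk1), 1 of 6 stromal markers higher (Pecam1), and of 6 enterocyte markers 1 was higher (Fabp1) and 1 lower (Lct). Of 4 markers of the proximal small intestine, Onecut2 and Lct were lower at day 7. At day 14 the only call in these 4 lists (tuft, stromal, enterocyte and proximal) was Sis, which was higher. Of 4 markers of the distal small intestine and colon, 1 was called lower at day 7 and 1 at day 14, and none higher. These distal markers summed to 203 to 292 CPM in WT and 242 to 536 CPM in KO crypts at day 7. No myeloid or lymphoid marker was called between KO and WT crypts on any day.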

How the data were processed

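RNA-Seq counts of small intestinal crypts from 18 mice were analysed. The authors deposited whole-number counts per gene, made per the file headers with featureCounts 1.6.4 after STAR 2.7.3 alignment to mm10. The header names GENCODE release 23 and the methods release 26. Counting ignored strand, counted a fragment for every gene it overlapped and left out fragments aligned to more than 1 place. The 20 sex-linked genes removed by the study were left out of the tests. Genes were filtered with filterByExpr by group, with its minimum count of 10, and normalized with TMM. One model of all 6 groups was fitted with edgeR 4.0.16 (limma 3.58.1, R 4.3.3) by the robust quasi-likelihood method, with Benjamini-Hochberg adjustment over 21349 genes and a threshold of 0.05. CPM uses TMM-scaled library sizes, and log2 CPM for correlations and ratios a prior count of 2. DESeq2 1.42.0 was an alternative. Counting error is small at 12844642 to 31493484 counts, except for Mptx1, and the spread of 3 mice sets the precision. Python 3.11.15 was used for sequences and plots.

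The named genes were the 9 markers, from each other list at most 4 called genes with the largest fold change, and the 3 genes most correlated with each marker. Atoh1 was added after its value was seen. Markers, lists and tests were chosen with earlier results of these data known. Same-numbered KO and WT libraries had deviations correlated at 0.05, 0.16 and 0.38 at day 2, -0.16, 0.21 and 0.08 at day 7 and 0.23, 0.18 and 0.16 at day 14. Numbers were taken as pairing only at day 14, where each is over 0.1. Some differently numbered libraries also passed 0.1, with 0.26 and 0.15 at day 7 and 0.14 and 0.11 at day 2. At day 14 they were at -0.15 to -0.04. The rule was taken from these same data and does not establish that the mice were paired. The replicate block still held terms for every day. The labels state no shared litter or day for a number. The alignment of upstream sequences was first scored with free end gaps. A stricter scoring was tried after that result was seen, and both are given.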

Additional observations from a re-analysis of the deposited data

Results flagged for a closer look

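The KO effect at day 7 differed from that at day 2 by edgeR's quasi-likelihood test of the difference itself, with Benjamini-Hochberg adjustment, for 8 of the 9 markers. On the log2 scale the difference was -2.17 for Lyz1 (adjusted p = 0.0255), -2.25 for Mmp7 (0.0341), -2.60 for Ang4 (0.0234) and -2.61 for Itln1 (0.0157). It was -2.53 for Clps (adjusted p = 0.0343), -2.38 for Pnliprp2 (0.0248), -1.79 for Habp2 (0.0477) and -2.94 for Mptx1 (0.00705). Mptx1 passed the filter on low counts only through its higher groups, and without it 7 of 8 were called. Leaving out 1 library then gave 1 to 7 calls, Itln1 being called in each of these fits. With no filter on low counts the adjusted p was 0.0551 to 0.116 for these 7, and none was called. In a fit of the day 2 and day 7 groups alone Habp2 was not called (0.0535). Mice of day 2 had received fewer injections than those of day 7, in both genotypes.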

How the results depend on the processing

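At day 7, 8 or 9 of the 9 markers were called lower under every alternative run, leaving out each library included, and at day 2 none was. The 3 calls of day 14 became 1 without a filter on low counts, and 5 with the replicate block and with DESeq2's Wald test. Leaving out 1 library gave 1 to 3, with 1 left without WT replicate 1 or any single KO replicate of day 14. The 8 calls for the difference of day 7 minus day 2 became 1 without a filter and 2 to 8 with 1 library left out. The 0 calls of day 14 minus day 2 became 1 without a filter, 2 with the replicate block, 2 with DESeq2, and 0 to 1 with 1 library left out. For KO day 14 against day 2, the 5 calls became 1 without a filter and 0 to 5 with 1 library left out. For KO day 14 against day 7, DESeq2 called 1. The difference of day 14 minus day 7 for Mptx2 turned to 0.079 with the replicate block, and leaving out 1 library gave -0.51 to 0.47. At day 2 the log2 fold change spanned -0.35 to 0.15 for Mptx1 and -0.0030 to 0.71 for Pnliprp2. The 1 call left without a filter was Mptx1 in each of these comparisons. The cause of these changes was not tested. The identity of the Mptx1 and Mptx2 upstream sequences was 88.5% with the first scoring and 86.4% with the stricter one, which was chosen after the first was seen. At days 2 and 7 the samples share only a number, and the block changed no count of calls there by over 1.5 times.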
